A study of Mus musculus with 6 samples.

Results

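The miRNAs described here are the 4 muscle miRNAs mmu-miR-1a-3p, mmu-miR-133a-3p, mmu-miR-133b-3p and mmu-miR-206-3p (mmu marks the mouse and is left out from here on), taken by name from tables of 16310 non-coding RNAs of which 1964 are mature miRNAs. All 4 had a row in every table, and 1 of them, miR-133b-3p, was at 0 reads in all 6 libraries. The libraries hold small RNA of exosomes, the small vesicles that cells shed into their medium. In the Fb group, 3 libraries came from exosomes of dermal fibroblasts, cultured from the dorsal skin of db/db mice aged 14 weeks, a line with obesity and diabetes. These cells grew in medium with fetal bovine serum, which was replaced by serum-free medium for 2 days before the vesicles were collected. In the ESC group, 3 libraries came from exosomes of epidermal stem cells of the dorsal skin of C57BL/6 mice aged 3 weeks, selected by rapid attachment to collagen IV and kept in serum-free keratinocyte medium. The strain field reads C57BL/6 for both groups, against the db/db mice of the growth protocol. Cell type, mouse line, age and medium changed together between the groups and cannot be told apart, and the replicates are not assigned to animals or cultures. The p-values therefore speak only of the variation among these 6 libraries, which may be technical.

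miR-1, miR-133 and miR-206 are the classic miRNAs of striated muscle. They are transcribed from paired genes under the control of muscle factors such as MyoD, myogenin, Mef2 and SRF. miR-1 and miR-206 share a seed, the stretch that pairs with target mRNAs, and promote differentiation of muscle precursors, while miR-133 has another seed and is known for keeping myoblasts in division. miR-1 and miR-133 are found in heart and skeletal muscle, miR-206 and miR-133b mainly in skeletal muscle. Mouse dorsal skin carries a sheet of skeletal muscle, the panniculus carnosus, beneath the dermis.

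The RefSeq table of miRNAs (build GRCm38.p6) held 2 of the 4 sequences. Both are shown in 5′ to 3′ direction with the seed, bases 2 to 8, in capitals, because the seed separates the 2 families.
miR-206-3p: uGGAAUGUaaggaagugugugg
miR-133b-3p: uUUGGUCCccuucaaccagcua
The seed of miR-206-3p occurred in 3 of the 1679 mature miRNAs of that table, the others being miR-6349 and miR-6382, and the seed of miR-133b-3p in miR-133b-3p alone. miR-1a-3p shares the seed of miR-206-3p, and miR-133a-3p shares that of miR-133b-3p and is nearly identical to it over its length, so the split of reads between the miR-133 rows may depend on how such reads were assigned. The hairpin of miR-206 is shown with the 3p arm in capitals, because the 5p arm had 0 reads in every library.
Mir206 hairpin: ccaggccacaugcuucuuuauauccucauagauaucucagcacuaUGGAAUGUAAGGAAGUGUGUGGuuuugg

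In GENCODE M21 (build GRCm38), Mir206 lies on chromosome 1 (20679010 to 20679082, plus strand) and Mir133b 3686 bases further on (20682769 to 20682887, plus strand). Both overlap an exon of the lincRNA gene Gm28653 (20669882 to 20684298, plus strand). miR-1a-3p has the genes Mir1a-1 on chromosome 2 (180389048 to 180389124, plus strand) and Mir1a-2 on chromosome 18 (10785481 to 10785552, minus strand). miR-133a-3p has Mir133a-2 on chromosome 2 (180398379 to 180398482, plus strand) and Mir133a-1 on chromosome 18 (10782909 to 10782976, minus strand). The chromosome 18 genes lie in introns of Mir133a-1hg on the same strand and of Mib1 on the opposite strand, and those of chromosome 2 overlap no other annotated gene. The mature rows do not tell which gene copy a read came from.

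The libraries held 6914504 to 8691350 assigned reads in Fb and 9894485 to 11149046 in ESC, of which mature miRNAs took 49019 to 177990 in Fb and 1392859 to 1522604 in ESC. In counts per 1000000 (CPM), a member can be set against mature miRNA reads or against all assigned reads, and mature miRNAs were 0.613% to 2.05% of all reads in Fb and 13.3% to 14.7% in ESC libraries. Fb replicate 1 had the fewest miRNA reads of all. The labelled cell types were checked against marker miRNAs. The 7 epidermal markers (miR-203, miR-205 and the miR-200 family) summed to 0.746% to 1.42% of miRNA reads in Fb and 5.99% to 7.46% in ESC libraries, and all 7 passed the test described below on the ESC side. Of all 325 miRNAs in that test, 21.8% passed on the ESC side and 27.7% on the Fb side. The 6 fibroblast and mesenchymal markers (miR-199 and miR-214) summed to 11.6% to 20.6% in Fb and 0.00524% to 0.00727% in ESC libraries. All 6 were on the Fb side of the test, but 4 of them entered it through the Fb libraries alone, so their side was set by the filter. Those that entered through both groups were the 3p rows of miR-199a and miR-199b, whose reads were uneven in opposite directions. In Fb replicates 1, 2 and 3, miR-199a-3p had 4791, 0.676 and 2049 estimated reads and miR-199b-3p 686, 35091 and 18508. In ESC replicates 1, 2 and 3 the values were 0, 107 and 76 for miR-199a-3p, against 65, 0.25 and 0 for miR-199b-3p. The split between these rows may depend on how reads were divided, which was not tested. They may therefore not be separate markers, and neither row alone gives the level in a library.

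miR-206-3p was the most abundant of the 4 in every library but Fb replicate 1. It was counted 17, 77 and 58 times in Fb replicates 1, 2 and 3, against 174, 166 and 209 times in ESC replicates 1, 2 and 3. Per 1000000 mature miRNA reads these counts were 347, 432 and 488 CPM in Fb, against 125, 112 and 137 CPM in ESC libraries. On that scale all 3 Fb libraries lay above all 3 ESC libraries. Among the 532 mature miRNAs with at least 10 reads over the 6 libraries, 23.9% had every Fb library above every ESC library on that scale and 30.1% had every one below. The Fb mean was 423 ± 71.3 CPM and the ESC mean 125 ± 12.5 CPM of miRNA reads (SD, n = 3 each), a ratio of 3.39, with an exact two-sided permutation p = 0.1, the smallest that 3 against 3 libraries can give.

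Against all assigned reads the order of the groups turned round. miR-206-3p had 2.13, 8.86 and 8.39 CPM of all reads in Fb replicates 1, 2 and 3, against 17.6, 14.9 and 20.1 CPM in ESC replicates 1, 2 and 3. Every Fb library then lay below every ESC library, as in 72.4% of the same 532 miRNAs (6.39% had every Fb library above), so most miRNAs shared that order. The means were 6.46 ± 3.76 CPM in Fb and 17.5 ± 2.63 CPM in ESC exosomes (SD, n = 3 each, exact two-sided permutation p = 0.1). miR-206-3p therefore held more of the miRNA reads, but less of all reads, in Fb exosomes. A share of reads cannot tell fewer vesicles or cells of one kind from less of the RNA in each.

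In edgeR's quasi-likelihood test on mature miRNAs, miR-206-3p was higher in Fb exosomes with a log2 fold change of 1.39 (SE 0.32, Benjamini-Hochberg adjusted p = 0.00986). In that fit 49.5% of the 325 miRNAs tested passed an adjusted p of 0.05, and 27.7% passed on the Fb side. The median log2 fold change of all miRNAs was 0.11, so miR-206-3p stood 1.28 above it. The call was lost without Fb replicate 2 or 3, without ESC replicate 1 or 2, with no filter on low counts, and when all RNAs of the tables were fitted together. When all RNAs were fitted, 11.8% of 2999 passed, and the miR-206-3p difference was 0.81 on the log2 scale with an SE of 1.01 (adjusted p = 0.734, edgeR), where the median miRNA stood at -1.15.

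**Figure D1:**
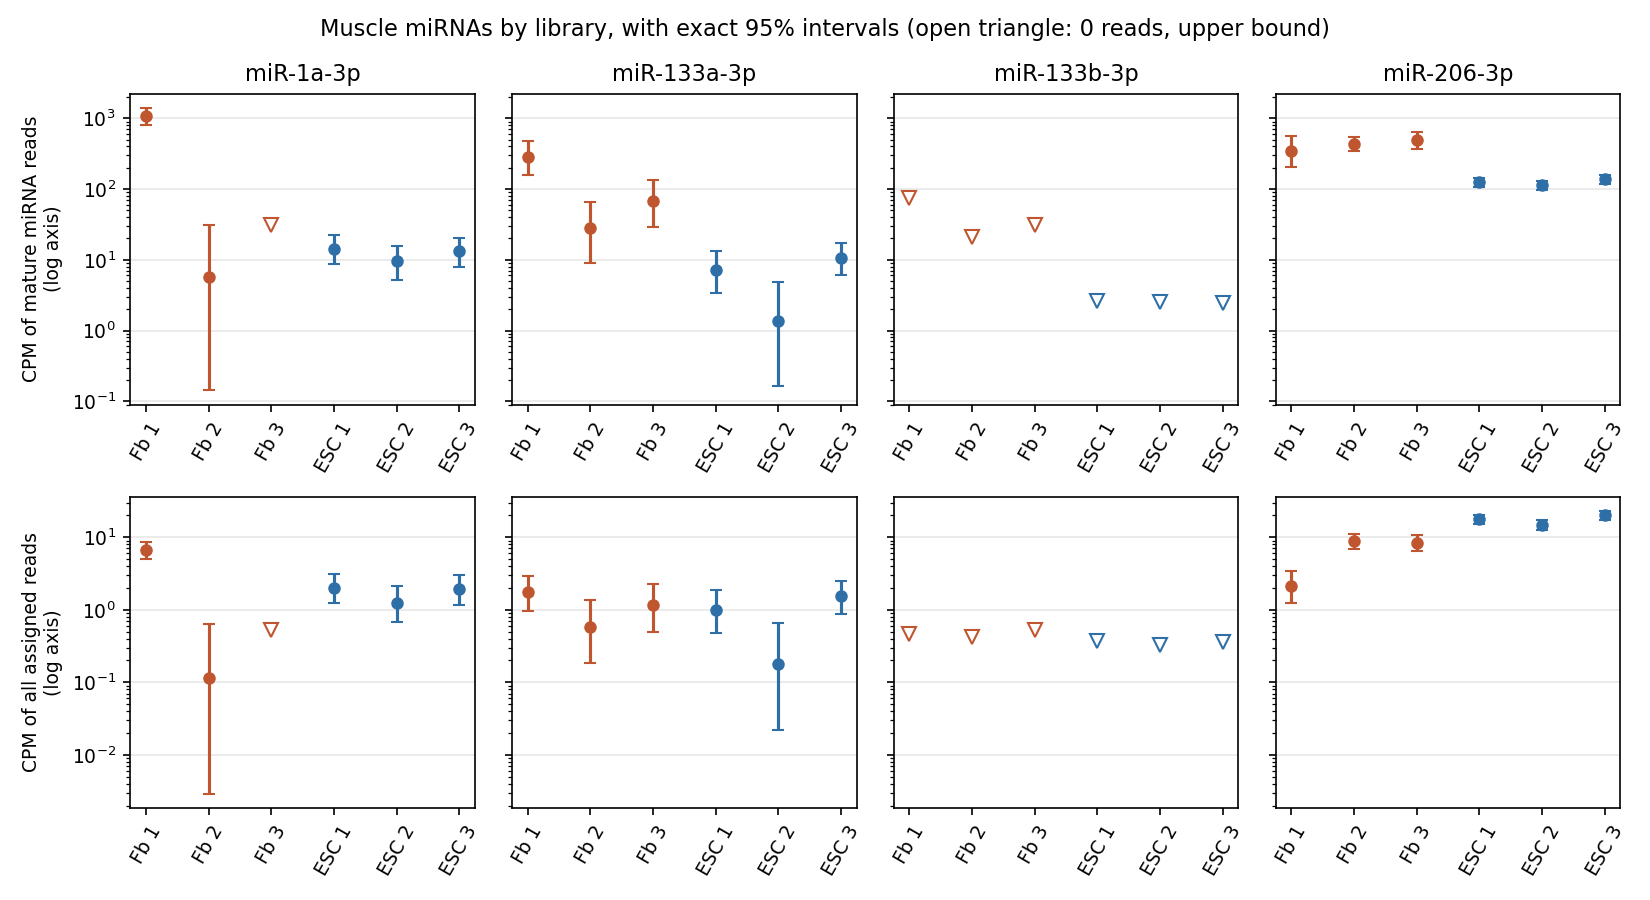
CPM of each muscle miRNA in each library (log axes), per 1000000 mature miRNA reads above and per 1000000 of all assigned reads below; points are libraries, bars exact 95% Clopper-Pearson intervals, and open triangles the upper bound where 0 reads were counted. Fb libraries of miR-206-3p sit between 347 and 488 CPM of miRNA reads, above 112 to 137 CPM in ESC libraries, and the order is the opposite in the lower row.

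Library by library, each of 9 ratios of an Fb to an ESC library for miR-206-3p was on the same side on a given scale. That follows from the order of the libraries given above, and the 9 ratios reuse the same libraries. Per miRNA read the ratios ran between 2.53 and 4.35, and all 9 exact 95% intervals lay above 1, with bounds between 1.44 and 5.90. Per assigned read they ran between 0.106 and 0.595, and all 9 intervals lay below 1. These intervals cover counting error only, since each is computed from the counts of an Fb and an ESC library and not from the spread between libraries. Within the Fb group, replicate 1 had 0.240 times the rate of replicate 2 per assigned read (exact 95% interval 0.133 to 0.410) but 0.802 times its rate per miRNA read (0.444 to 1.37). The level of miR-206-3p among miRNAs thus did not differ beyond counting error between those libraries, whose miRNA shares of all reads were 0.613% and 2.05%. Among mature miRNAs, miR-206-3p ranked 132, 117 and 109 in Fb replicates 1, 2 and 3, and 142, 147 and 139 in ESC replicates 1, 2 and 3.

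**Figure D2:**
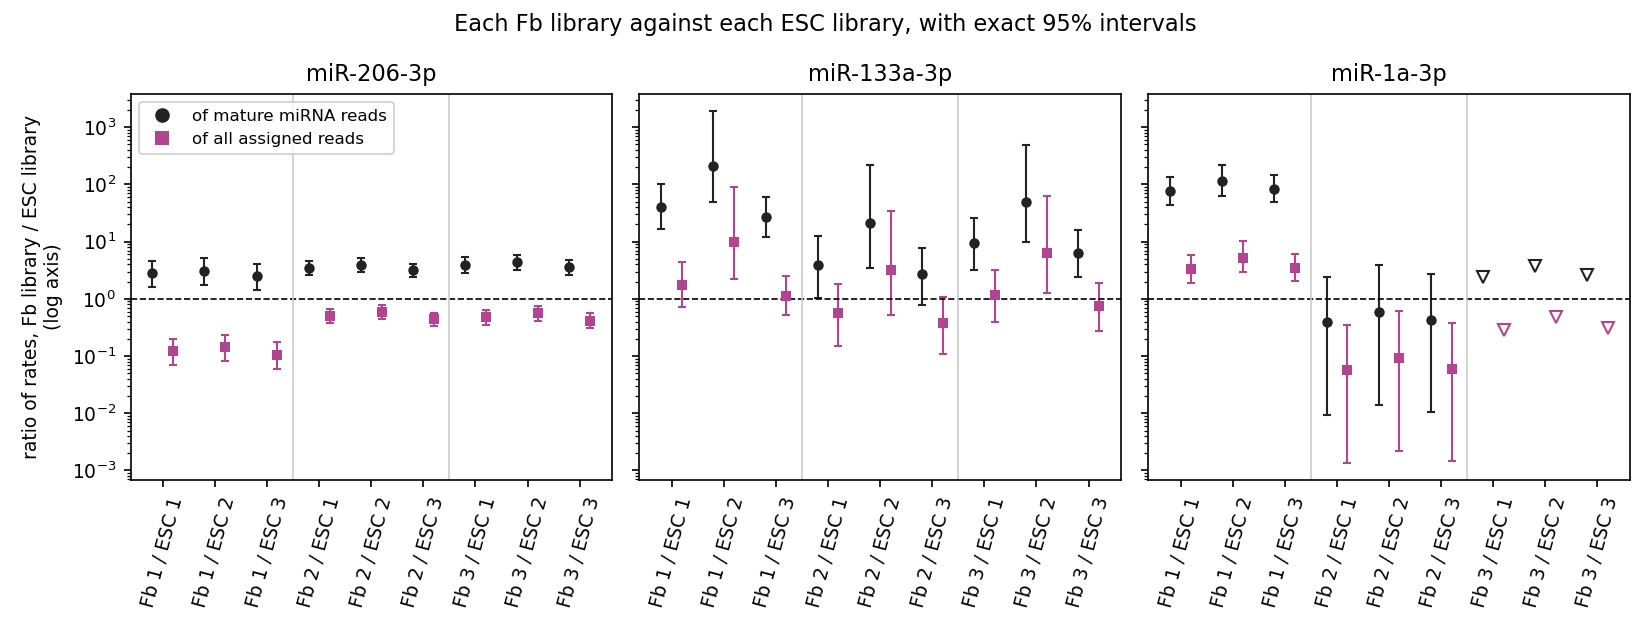
Ratio of the rate in each Fb library to that in each ESC library (log axis) for the 3 muscle miRNAs with reads, per mature miRNA read (black circles) and per assigned read (pink squares), with exact 95% intervals; open triangles mark the upper bound where the Fb library had 0 reads, and the dashed line is a ratio of 1. All 9 intervals of miR-206-3p lie above 1 per miRNA read and below 1 per assigned read, whereas the ratios of miR-1a-3p above 1 all belong to Fb replicate 1.

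miR-1a-3p, the partner of miR-206 in seed, rested on 1 Fb library. It was counted 53, 1 and 0 times in Fb replicates 1, 2 and 3, against 20, 14 and 20 times in ESC replicates 1, 2 and 3. Per 1000000 miRNA reads this came to 1081, 5.62 and 0 CPM in Fb, against 14.1, 9.47 and 13.1 CPM in ESC libraries. Fb replicate 1 was far above every other library, and the other Fb libraries were below the ESC libraries, so the groups overlapped on both scales. Zero reads in Fb replicate 3 allow up to 25.3 CPM of miRNA reads at the floor of 3 reads, which is above the ESC levels.

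The mean of miR-1a-3p was 362 ± 623 CPM in Fb and 12.2 ± 2.45 CPM in ESC exosomes (of miRNA reads, SD, n = 3 each), with an exact two-sided permutation p = 1. edgeR fitted 4.08 on the log2 scale (SE 1.66, adjusted p = 0.0799), which missed the threshold. Without Fb replicate 1 the fitted log2 fold change was -2.20 (SE 1.08, edgeR adjusted p = 0.120), the opposite sign. The difference was called with DESeq2 (adjusted p = 0.0325), with no filter (edgeR adjusted p = 4.39e-08) and without Fb replicate 2 (edgeR adjusted p = 0.0288). Each of these fits held Fb replicate 1, which had nearly all Fb reads of miR-1a-3p. With no filter the SE was 0.60, against 1.66 with it, although the counts were the same. That small p is therefore no evidence of a difference shared by the Fb libraries.

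Set against the ESC libraries one at a time, Fb replicate 1 had 75.3 to 114 times as much miR-1a-3p per miRNA read, and all 3 exact 95% intervals lay above 1. For the other 2 Fb libraries all 6 intervals held 1, so a difference was not detectable at this depth. Per assigned read, Fb replicate 1 had 3.28 to 5.28 times as much as an ESC library, again with 3 intervals above 1. The other 6 ratios were 0 to 0.0916, with all 6 intervals below 1. Summed over groups, 54 reads in Fb and 54 in ESC libraries gave a ratio of 12.7 per miRNA read (exact 95% interval 8.55 to 18.9). Per assigned read the same counts gave 1.33 (0.896 to 1.98), an interval that held 1. Without Fb replicate 1, 1 read remained in the Fb group. The ratio was then 0.274 per miRNA read (0.00682 to 1.59) and 0.0373 per assigned read (0.000927 to 0.217). Intervals of summed reads cover counting error and not the spread between libraries, so they do not measure the uncertainty of a group ratio.

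**Figure D3:**
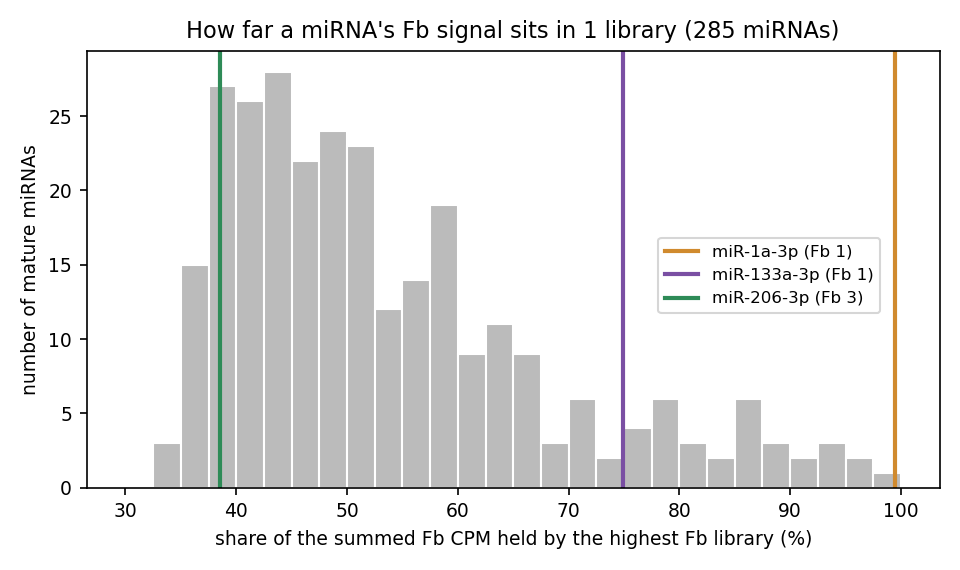
Histogram of the share of the summed Fb CPM of a mature miRNA (x axis, %) that its highest Fb library holds, over the 285 mature miRNAs (y axis, their number) with at least 10 Fb reads; coloured lines mark the muscle miRNAs with their highest library. miR-1a-3p stands at the far right with 99.5%, miR-206-3p at 38.5%.

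That concentration in 1 library was the highest of the 285 mature miRNAs with at least 10 reads in Fb libraries. For miR-1a-3p the highest Fb library held 99.5% of the summed CPM, for miR-133a-3p 74.9% and for miR-206-3p 38.5%, with a median of 49.5% over all 285. In the ESC group the highest library held 38.5%, 55.3% and 36.6% for these 3 miRNAs, with a median of 40.3% over 474 miRNAs.

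miR-133a-3p had few reads in either group. It was counted 14, 5 and 8 times in Fb replicates 1, 2 and 3, against 10, 2 and 16 times in ESC replicates 1, 2 and 3. Per 1000000 miRNA reads it stood at 286, 28.1 and 67.4 CPM in Fb, against 7.14, 1.35 and 10.5 CPM in ESC libraries. The Fb libraries lay above the ESC libraries on this scale, with Fb replicate 1 the highest (exact two-sided permutation p = 0.1). Every Fb library lay above every ESC library in 23.9% of the 532 mature miRNAs with at least 10 reads over the 6 libraries. The means were 127 ± 139 CPM in Fb and 6.33 ± 4.63 CPM in ESC exosomes (SD, n = 3 each). Without Fb replicate 1 the Fb mean was 47.7 CPM, and the difference between the means was 41.4 CPM, against 121 CPM with all libraries and 170 CPM without Fb replicate 2.

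miR-133a-3p entered the test through the Fb libraries alone, since only those 3 reached the filter of 12.7 CPM of miRNA reads, so its entry depended on its being high there. The fitted value of 3.55 on the log2 scale (SE 0.97, adjusted p = 0.0199 in edgeR's test) is therefore a description and no independent evidence of a difference. With no filter the fit gave 3.12 (SE 0.71, edgeR adjusted p = 1.26e-04), where the median miRNA stood at -1.31. Being a fit of the same reads, it is no independent evidence either. miR-133a-3p missed the threshold without Fb replicate 1 (log2 fold change 2.41, adjusted p = 0.0527), without ESC replicate 1 or 2, and in the fit of all RNAs (1.50, SE 0.75, adjusted p = 0.284). Of the 9 ratios per miRNA read, 8 had intervals above 1. The remaining one, of Fb replicate 2 to ESC replicate 3, was 2.67 with an interval from 0.766 to 7.64.

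Per assigned read miR-133a-3p did not separate the groups. It had 1.75, 0.575 and 1.16 CPM of all reads in Fb replicates 1, 2 and 3, against 1.01, 0.179 and 1.54 CPM in ESC replicates 1, 2 and 3 (exact two-sided permutation p = 0.6). On this scale 7 of 9 intervals held 1 and 2 lay above it, both against ESC replicate 2, which had 2 reads.

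miR-133b-3p, made from the same transcript region as miR-206, was at 0 reads in all 6 libraries. The floor of 3 reads corresponds to 61.2, 16.9 and 25.3 CPM of miRNA reads in Fb replicates 1, 2 and 3, and to 2.15, 2.03 and 1.97 CPM in ESC replicates 1, 2 and 3. Those limits lie below the 347 to 488 CPM in Fb and 112 to 137 CPM in ESC libraries of its neighbour miR-206-3p. No test was possible for it, and summing it with miR-133a-3p left the fit of that miRNA as it was.

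The make-up of the muscle miRNA reads inside a library depends on neither denominator. miR-206-3p was 20.2% of the reads of the 4 miRNAs in Fb replicate 1 (exact 95% interval 12.3 to 30.4), 92.8% in Fb replicate 2 (84.9 to 97.3) and 87.9% in Fb replicate 3 (77.5 to 94.6). In ESC replicates 1, 2 and 3 it was 85.3% (79.7 to 89.9), 91.2% (86.1 to 94.9) and 85.3% (80.2 to 89.5). Fb replicate 1 stood furthest apart, with miR-1a-3p at 63.1% (51.9 to 73.4) of its muscle miRNA reads. In Fb replicates 2 and 3 miR-1a-3p was 1.20% (0.0305 to 6.53) and 0% (0 to 5.44). In ESC replicates 1, 2 and 3 it was 9.80% (6.09 to 14.7), 7.69% (4.27 to 12.6) and 8.16% (5.06 to 12.3). The interval of Fb replicate 3 lay below that of ESC replicate 1 but met those of ESC replicates 2 and 3. miR-133a-3p took 16.7%, 6.02% and 12.1% in Fb and 4.90%, 1.10% and 6.53% in ESC libraries.

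**Figure D4:**
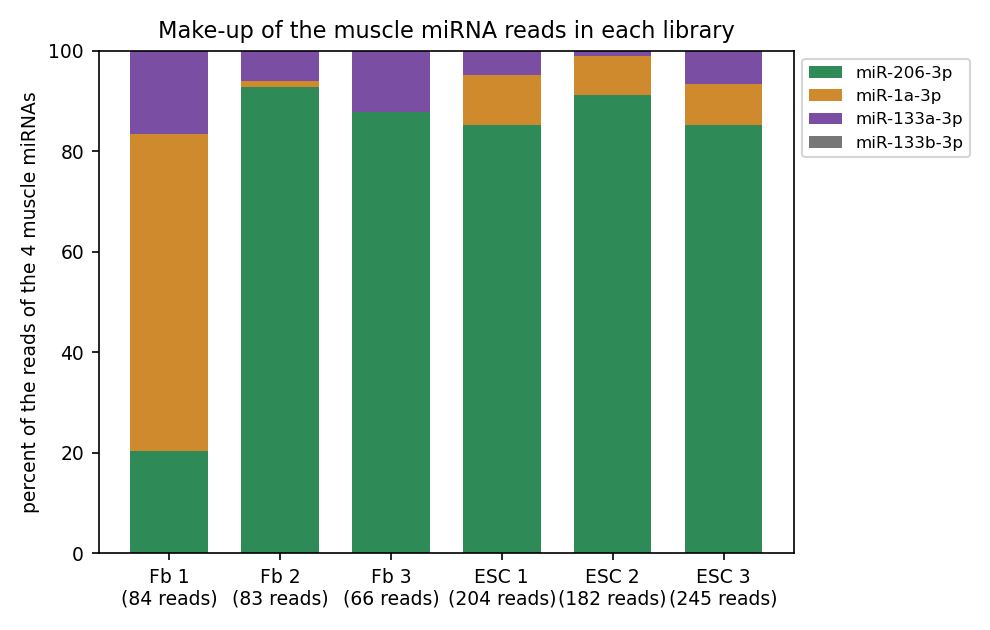
Stacked bars of the percent of muscle miRNA reads (y axis) that each of the 4 miRNAs took in each library (x axis, with the number of reads). miR-206-3p takes 85.3% to 92.8% in every library except Fb replicate 1, where it takes 20.2% and miR-1a-3p 63.1%.

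Summed by seed, miR-1a-3p and miR-206-3p together had 8.76, 8.97 and 8.39 CPM of all reads in Fb replicates 1, 2 and 3, against 19.6, 16.1 and 22.1 CPM in ESC replicates 1, 2 and 3. As a family they thus varied little between Fb libraries on that scale, although the split between the 2 miRNAs was unlike in Fb replicate 1. Per miRNA read the same sum was 1428, 438 and 488 CPM in Fb, against 139, 122 and 150 CPM in ESC libraries.

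The partner arms and precursors of the muscle miRNAs carried almost no reads. Of 8 further mature rows of these families (the 5p arms, miR-1b and miR-133c), 7 were at 0 in all 6 libraries, miR-206-5p and miR-133a-5p among them, and the highest value was 0.158 of a read. Of the 8 hairpin rows, 4 were at 0 throughout and none reached 1 read in a library. The lincRNA gene Gm28653, whose exons overlap Mir206 and Mir133b, had 1.51, 0.679 and 0.667 estimated reads in Fb replicates 1, 2 and 3, against 6.02, 10.3 and 18.5 in ESC replicates 1, 2 and 3. Mir133a-1hg, the host gene of Mir1a-2 and Mir133a-1, had at most 0.333 of a read in a library. Neither passed the filter of the fit of all RNAs.

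Among 9 other miRNAs known from striated muscle, those of the myosin genes were near 0. miR-208a and miR-208b, encoded in cardiac and slow myosin genes, and miR-499, from the related Myh7b gene, gave 6 rows, of which 4 were at 0 throughout. The other 2 had no reads in Fb libraries. They are shown because their seeds, in capitals, resemble each other and not the muscle seeds above.
miR-208b-3p: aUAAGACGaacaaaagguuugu
miR-499-5p: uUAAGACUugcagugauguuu
In ESC replicates 1, 2 and 3, miR-208b-3p had 2, 0 and 2 reads and miR-499-5p 0, 3 and 2 reads.

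The remaining 3 rows of that list are also abundant outside muscle. miR-378a-3p, from an intron of Ppargc1b and known from energy metabolism, had 21377, 14023 and 19140 CPM of miRNA reads in Fb replicates 1, 2 and 3, against 5150, 5366 and 6352 CPM in ESC replicates 1, 2 and 3 (log2 fold change 1.27, SE 0.27, edgeR adjusted p = 0.00713). Its Fb libraries lay above its ESC libraries on that scale, as in 23.9% of the 532 mature miRNAs with at least 10 reads over the 6 libraries. Per assigned read its Fb libraries lay below its ESC libraries, as in 72.4% of those 532 miRNAs, miR-206-3p among them. It had 131, 287 and 329 CPM of all reads in Fb replicates 1, 2 and 3, against 725, 712 and 932 CPM in ESC replicates 1, 2 and 3. The fit of all RNAs did not call miR-378a-3p (0.47 on the log2 scale, SE 1.20, adjusted p = 0.896 in edgeR's test). miR-486a-5p and miR-486b-5p, known from muscle and red blood cells, share one mature sequence, so they were summed. The sum was 4262, 1145 and 22165 CPM of miRNA reads in Fb replicates 1, 2 and 3, against 225, 194 and 299 CPM in ESC replicates 1, 2 and 3. Of all reads it was 26.1, 23.5 and 381 CPM in Fb replicates 1, 2 and 3, against 31.7, 25.8 and 43.9 CPM in ESC replicates 1, 2 and 3, so on that scale only Fb replicate 3 lay above the ESC libraries. Fb replicate 3 held most of it, unlike miR-1a-3p and miR-133a-3p, which were highest in Fb replicate 1. Neither row of miR-486 passed alone (log2 fold change 4.90 and 4.85, edgeR adjusted p = 0.0684 and 0.118). In this list of 9, 3 were tested, each with libraries of both groups past the filter, 1 was higher in Fb and none in ESC exosomes, beside 27.7% of all miRNAs higher in Fb and 21.8% in ESC exosomes.

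Markers of other cell types moved between groups in different ways. Smooth muscle and stromal miRNAs (miR-143 and miR-145, both arms of each) were on the Fb side of the test in 4 of 4, but 3 of them entered it through the Fb libraries alone. Of all miRNAs tested, 27.7% passed on the Fb side and 21.8% on the ESC side. miR-143-3p, which entered through both groups, differed by 9.03 on the log2 scale (SE 0.38, adjusted p = 7.31e-06 in edgeR's test). The sum of the 4 was 7.92%, 9.96% and 10.4% of miRNA reads in Fb replicates 1, 2 and 3, against 0.0126% to 0.0137% in ESC libraries. Among the Fb libraries, replicate 1, which held the miR-1a-3p reads, was the lowest. The 9 blood cell and serum miRNAs summed to 1187 to 22308 CPM of miRNA reads in Fb and 204 to 311 CPM in ESC libraries, nearly all of it miR-486. Of all reads their sum was 27.0, 24.3 and 383 CPM in Fb replicates 1, 2 and 3, against 33.0, 27.1 and 45.6 CPM in ESC replicates 1, 2 and 3. Of the 3 that were tested, both miR-486 rows did not pass. The white cell miRNA miR-142a-5p passed on the Fb side, but it entered through the Fb libraries alone, with 5, 3 and 8 reads in Fb replicates 1, 2 and 3 and 0, 1 and 2 reads in ESC replicates 1, 2 and 3. The liver miRNA miR-122-5p, also found in serum, had 5.83, 5.62 and 0 CPM of miRNA reads in Fb replicates 1, 2 and 3 (at most 1 read each) and 7.90, 6.09 and 6.57 CPM in ESC replicates 1, 2 and 3 (9 to 11 reads), a difference not detectable on that scale at this depth. Of all reads miR-122-5p had 0.0357, 0.115 and 0 CPM in Fb replicates 1, 2 and 3. The ESC replicates had 1.11, 0.807 and 0.964 CPM. Every Fb library lay below every ESC library there, as in 72.4% of the 532 miRNAs. It was not in the test. The red cell miRNA miR-451a had 40.8, 5.62 and 58.9 CPM of miRNA reads in Fb replicates 1, 2 and 3 (1 to 7 reads) and 0.718, 0.676 and 3.28 CPM in ESC replicates 1, 2 and 3 (1 to 5 reads). Of all reads miR-451a had 0.250, 0.115 and 1.01 CPM in Fb replicates 1, 2 and 3. The ESC replicates had 0.101, 0.0897 and 0.482 CPM, so the groups overlapped on that scale. The other arm of the white cell miRNA, miR-142a-3p, was at 0 throughout. The endothelial pair miR-126a-3p and miR-126a-5p summed to 347, 163 and 109 CPM of miRNA reads in Fb and 120, 77.1 and 120 CPM in ESC libraries. Of all reads the pair had 2.13, 3.34 and 1.88 CPM in Fb replicates 1, 2 and 3, against 16.9, 10.2 and 17.5 CPM in ESC replicates 1, 2 and 3. The arm that was tested, miR-126a-5p, did not pass (log2 fold change 0.39, edgeR adjusted p = 0.491). The part of other cells, serum or depth in the muscle miRNA reads was not tested.

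Across the 6 libraries, the log2 CPM of miR-206-3p was most like that of miR-99a-5p, miR-101a-3p and miR-369-3p (Pearson r of 0.993, 0.988 and 0.988). That of miR-133a-3p was most like miR-148a-5p, miR-574-5p and miR-125b-1-3p (r of 0.987, 0.981 and 0.978). For miR-1a-3p the closest were miR-5113, miR-411-5p and miR-324-5p (r of 0.907, 0.904 and 0.892). These values describe 6 points that share group, depth and library, the same 3 and 3 for every miRNA, and a difference between the groups alone raises them.

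**Figure D5:**
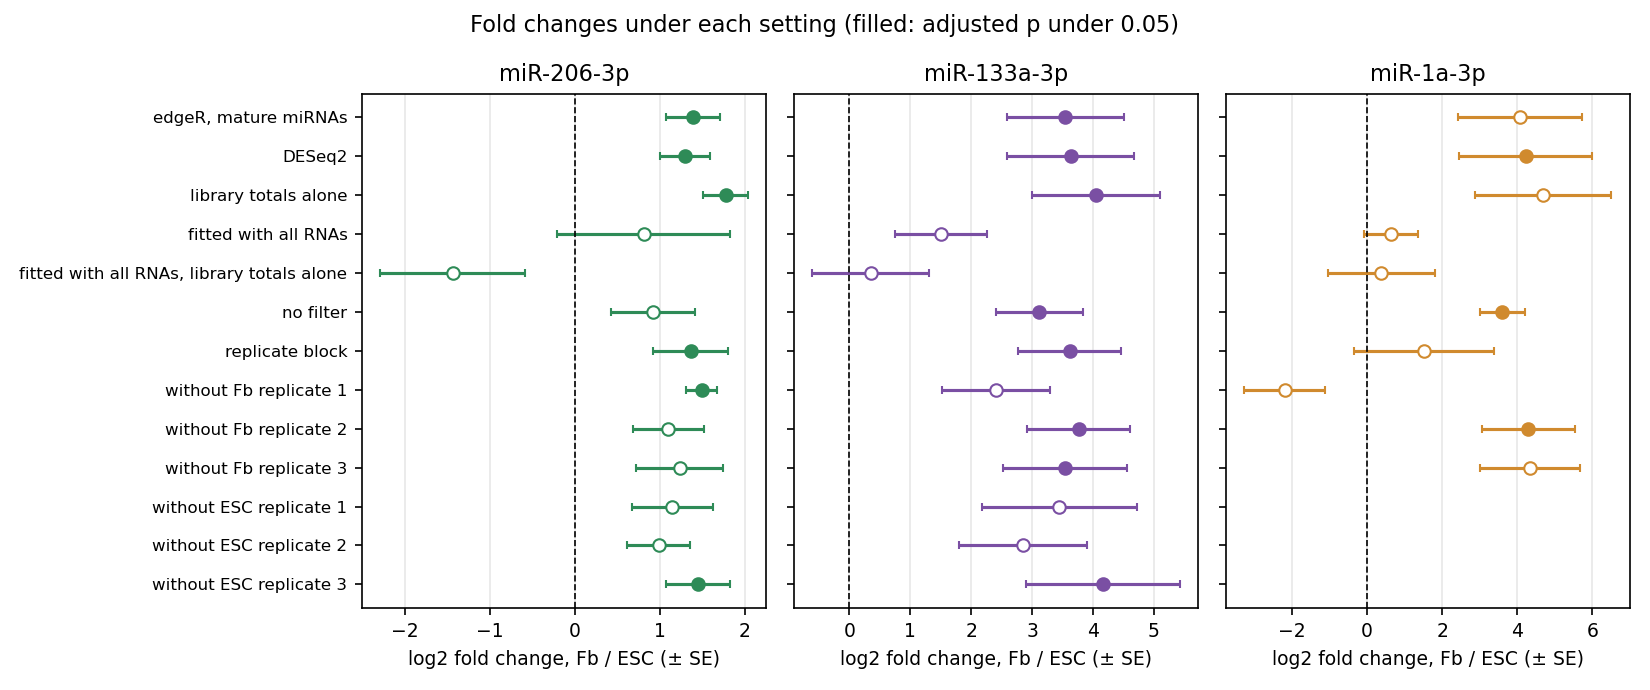
Log2 fold change of Fb over ESC exosomes (x axis, bars are SE) for 3 muscle miRNAs under each way of fitting (rows); filled circles passed an adjusted p of 0.05, and a missing circle means the miRNA was not tested. miR-206-3p lies above 0 in each row but the fit of all RNAs on library totals (-1.44), and miR-1a-3p lies above 0 in each row that tested it but the one without Fb replicate 1 (-2.20).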

How the data were processed

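The deposited values are estimated counts of reads per non-coding RNA, 1 table per library, in a column named counts per the file headers, and their totals differ between libraries as those of unscaled counts do. FastQC, cutadapt and build GRCm38 are named in the submitters' processing notes. How reads were aligned and counted, with or without strand, and how reads with several matches were divided, is not given in the sources used here. Of the nonzero values 82.6% to 92.2% in a library were fractional.

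Counts were rounded for count models and intervals. CPM was computed over the 1964 mature miRNA rows, over all rows, and over all rows without the 471 tRNA genes. Intervals are exact at 95% (Clopper-Pearson for shares, conditional binomial for ratios) and cover counting error only, with a floor of 3 reads. Fits used edgeR 4.0.16 in R 4.3.3 (quasi-likelihood, TMM, filterByExpr with a minimum count of 10 and total of 15, no covariates, adjusted after Benjamini-Hochberg over all miRNAs tested). The SE was derived from the fold change and its F statistic. Permutation tests used scipy 1.17.1. For likeness, a prior count of 2 was added before taking log2 of CPM. The fits were also run on simulated counts with the same dispersion for all miRNAs, and the outcome is not given here. That run does not speak for a miRNA whose reads sit in 1 library. Named were the 4 members, fixed lists of their other rows, of other striated muscle miRNAs, of genes overlapping them and of cell type markers, and the 3 miRNAs most like each member. The alternatives were DESeq2 1.42.0, library totals alone, all RNAs in the fit, no filter, a replicate block, and 1 library left out at a time. A fit of all RNAs on library totals was added after seeing the data. Members and lists were chosen with earlier results of these data known.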

Additional observations from a re-analysis of the deposited data

How the results depend on the processing

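The number of mature miRNAs called, 161, was 69 when they were fitted with all RNAs and 103 to 213 when 1 library was left out, with 103 without Fb replicate 3, 107 without ESC replicate 3 and 213 without Fb replicate 1. For miR-206-3p the log2 fold change was 0.81 with all RNAs (edgeR adjusted p = 0.734), -1.44 with all RNAs on library totals (adjusted p = 0.449) and 0.92 with no filter (adjusted p = 0.208), and 0.98 to 1.49 with 1 library left out. Relative to the median miRNA of the same fit it was 0.99 to 2.23 over these 12 alternatives. Its difference in share, Fb minus ESC, was -11.1 CPM of all reads and -44.6 CPM of all reads without tRNA genes, against 298 CPM of miRNA reads. The log2 fold change of miR-133a-3p was 1.50 with all RNAs (adjusted p = 0.284), 0.35 with all RNAs on library totals (adjusted p = 0.868) and 2.41 to 4.16 with 1 library left out, and its difference in share was 41.4 to 170 CPM of miRNA reads, the lowest without Fb replicate 1. That of miR-1a-3p was 4.22 with DESeq2, 3.60 with no filter (SE 0.60, against 1.66 with the filter, edgeR adjusted p = 4.39e-08) and -2.20 to 4.35 with 1 library left out. Its difference in share was -9.42 CPM of miRNA reads without Fb replicate 1, and up to 531 CPM without another library. It was not tested without an ESC library, where the filter left it out. The cause of these changes was not tested, apart from the denominators, which set the shares by construction.

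Replicate numbers of the titles showed no sign of pairing the libraries. The correlations of their deviations from the group means over 296 miRNAs were -0.247, -0.153 and -0.142 for numbers 1, 2 and 3. No library correlated best with its own number. Deviations from a mean of 3 libraries depend on each other, so these values cannot decide whether libraries of one number were prepared together. With the replicate number as a block, the log2 fold change was 1.36 for miR-206-3p (adjusted p = 0.0493), 3.62 for miR-133a-3p (adjusted p = 0.0157) and 1.52 for miR-1a-3p (adjusted p = 0.547), with 114 miRNAs called. At the depth of Fb replicate 1, 1 read weighs more in CPM of miRNA reads than in any other library (3 reads are 61.2 CPM), whereas per assigned read it weighs most in Fb replicate 3 (3 reads are 0.434 CPM).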

Other observations

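Besides miR-1a-3p, 2 of the 285 mature miRNAs with at least 10 Fb reads had 95% or more of their summed Fb CPM in 1 library, and both were again in Fb replicate 1. They were named after their values were seen. miR-375-3p, known from neuroendocrine cells, had 9, 1 and 0 reads in Fb replicates 1, 2 and 3, against 85, 80 and 105 reads in ESC replicates 1, 2 and 3. miR-5108 had 18.0, 0 and 1.17 estimated reads in Fb replicates 1, 2 and 3, against 29.2, 27.0 and 24.4 in ESC replicates 1, 2 and 3. Per miRNA read, Fb replicate 1 lay above each ESC library for all 3, with 184 CPM of miR-375-3p against 54.1 to 68.9 CPM in ESC libraries, and 366 CPM of miR-5108 against at most 20.9 CPM. Per assigned read it lay above them for miR-1a-3p (6.63 CPM against 1.26 to 1.99 CPM) and below them for miR-375-3p (1.13 CPM against 7.18 to 10.1 CPM) and miR-5108 (2.25 CPM against 2.35 to 2.95 CPM).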
